A study of Drosophila melanogaster with 19 samples.

Results

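Embryos with the FLWF24 rescue transgene, which cannot make Chiffon-A, were compared with embryos with the FL transgene, which can. The labels do not say whether the stocks match in insertion site or in the rest of the genetic background. Both groups were taken by their labels, and they make up 7 of the 19 RNA-seq libraries of stage 12 to 14 *Drosophila melanogaster* embryos, 4 for FLWF24 and 3 for FL. All 7 came from *chiffon* mutants with a different null allele on each copy of chromosome 2 (*chiffon* ETBE3 and *chiffon* DsRed), 1 with an act-Gal4 driver and the other with UAS-GFP, so that mutants could be picked by hand as GFP-positive embryos, and each carried 1 copy of a *chiffon* transgene. The FL transgene encodes the full-length protein. The FLWF24 transgene carries an early stop codon, after which, according to the study, Chiffon-B is made from the same transcript but Chiffon-A is not. The other libraries were from mutants without a transgene (null, n = 4), mutants with a transgene that lacks the N-terminal part (ΔN, n = 4) and act-Gal4 x GFP embryos with intact *chiffon* (WT, n = 4). RNA was taken from pools of whole embryos, so fewer cells of a type and less RNA per cell cannot be told apart in any value given here. Replicates are named by their number, 2 to 4 for FL and 1 to 4 for FLWF24, and values are listed in that order.

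Chiffon is the *Drosophila* Dbf4 protein. Its N-terminal product, Chiffon-A, binds the Cdc7 kinase to form DDK (Dbf4-dependent kinase), which phosphorylates the MCM helicase to fire replication origins. Its C-terminal product, Chiffon-B, is a subunit of CHAT (Chiffon histone acetyltransferase). There it binds the acetyltransferase Gcn5, and the other subunits are Ada2b, Ada3 and Sgf29. FLWF24 against FL therefore asks which transcripts differ when the transgene cannot make the DDK product but can make the CHAT product. In the study's staining, Chiffon-A was seen in early nuclear cycles and was not detected in later-stage embryos with a tagged full-length transgene. Whether FL embryos still held Chiffon-A when sampled cannot be told from RNA counts.

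The FL libraries held 15184670 to 16204777 gene counts and the FLWF24 libraries 8816348 to 14703609. FLWF24 replicate 3 was the shallowest of the 7 and had the largest share of reads outside genes (91.4%, against 74.1% to 84.4% in the other 6). Replicates 3 and 4 of FLWF24 stood apart from the other 5 libraries on the second principal component of log2(CPM + 1), with CPM as counts in every 1000000 of the scaled library, and on the factor of unwanted variation, which was -0.43 and -0.15 in them and 0.21 to 0.32 in the other 5. The stage score, the mean log2(CPM + 1) of late muscle and cuticle genes minus that of early embryo genes, was -0.84, -0.74 and 0.04 in FL and 0.72, 0.21, 1.97 and 0.997 in FLWF24, so every FLWF24 library lay above every FL library. The WT libraries had scores of 0.27 to 2.22. For the muscle and late cuticle medians, values without FLWF24 replicates 3 and 4 or with the score in the model are given beside them. For most single genes such values are not given. Of 16 genes for follicle cells, chorion and yolk, 9 were too low to be tested, and their summed level was 4.39 to 9.78 CPM in FL and 0.926 to 9.24 CPM in FLWF24.

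**Figure D1:**
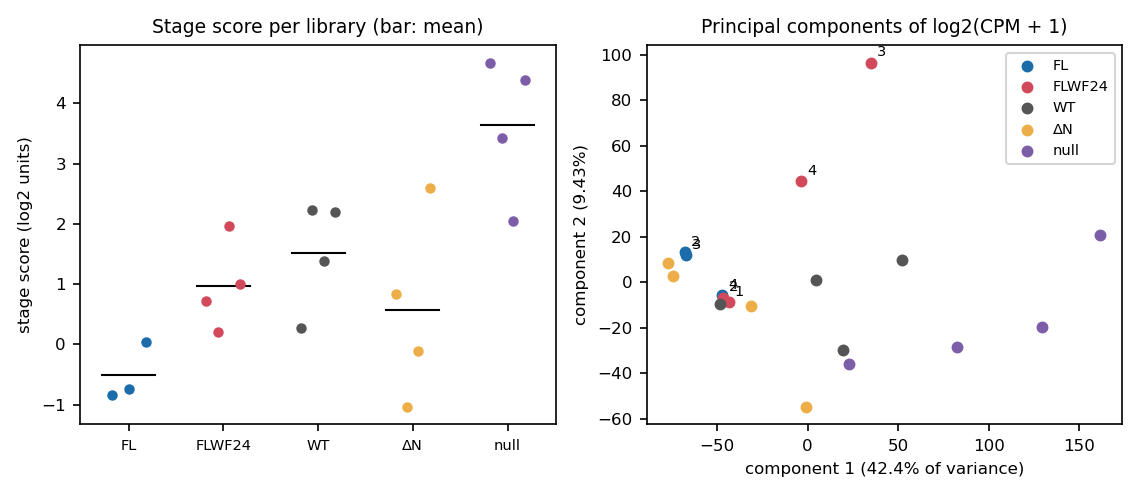
Left, the stage score of each library (points, in log2 units) by genotype, with the group mean as a bar. Right, the first 2 principal components of log2(CPM + 1), coloured by genotype, with replicate numbers for FL and FLWF24. The 4 FLWF24 libraries lie at 0.21 to 1.97 on the stage score and the 3 FL libraries at -0.84 to 0.04, and FLWF24 replicates 3 and 4 are the highest 2 libraries on the second component.

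A gene was called when it had an adjusted p under 0.05 with a log2 difference of 0.5 or more in size. Between FLWF24 and FL, 1 of 11978 tested genes was called (0.00835%). It was CG10311 (FBgn0038420, chromosome arm 3R, 16350786 to 16357015, minus strand), a protein-coding gene known here by its number only. It had no counts in any FL library and was at 3.03, 3.96, 19.4 and 2.29 CPM in FLWF24. Against a floor of 3 counts per FL library its mean was at least 38.3-fold higher, and at least 16.5-fold higher without FLWF24 replicate 3, which held the highest value (edgeR quasi-likelihood test, adjusted p 0.00291). The FL libraries were the ones that stood apart for CG10311, since it was at 4.4 to 23.6 CPM in WT, 2.96 to 12.5 in ΔN and 6.89 to 83.5 in null.

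The number of calls moved with the model. An unadjusted p under 0.05 was found for 766 genes (6.4%), 445 of them higher in FLWF24 (3.72% of those tested) and 321 lower (2.68%). Levels did not overlap between the 4 FLWF24 and the 3 FL libraries for 962 genes (8.03%), 564 in the higher (4.71%) and 398 in the lower direction (3.32%). DESeq2 with the same model called 206 genes (1.72%), of which 158 were higher and 48 lower and 81 did not overlap between the groups. A fit of the 7 libraries alone called 33 of 10085 genes (0.327%), 32 of them higher, and CG10311 was not among them (adjusted p 0.102). Without the factor of unwanted variation no gene was called by edgeR, with 958 at an unadjusted p under 0.05. For 3886 genes (32.4%) the 95% interval of the difference lay within 1 log2 unit of 0, and for the others it reached past 1 log2 unit in at least 1 direction.

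The *chiffon* transcript did not separate the rescues. The gene (chif, FBgn0000307) lies on chromosome arm 2L, 16342430 to 16352628, minus strand, and its transcript was at 222, 243 and 249 CPM in FL and 221, 313, 246 and 236 CPM in FLWF24, and the groups overlapped. The difference was 0.12 on the log2 scale (SE 0.239, 95% interval -0.37 to 0.62, adjusted p 1). The null embryos had 22.3 to 37.96 CPM, so both rescue groups lay above all mutants without a transgene, and the ΔN embryos had 250.4 to 549. Counts per gene do not separate the transgene from other *chiffon* transcripts and do not show which protein is made.

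Among the partners of Chiffon-B, Gcn5, the acetyltransferase of CHAT and of SAGA, had the largest difference. It was at 86.2, 96.2 and 68.3 CPM in FL and 48.5, 62.7, 54.6 and 30.6 CPM in FLWF24, with every FLWF24 library below every FL library, but the difference did not pass the test (log2 fold change -0.70, SE 0.282, unadjusted p 0.0204, adjusted p 0.697). WT embryos had 48.4 to 61.8 CPM and ΔN embryos 40.8 to 59.8, both below every FL library. Ada3, an adaptor subunit that binds Gcn5, was at 57.3, 43.4 and 52.1 CPM in FL and 30.9, 42.8, 33.4 and 35.8 CPM in FLWF24, which also did not overlap, with a fitted difference of -0.27 (SE 0.2904, adjusted p 1). Ada2b, an adaptor that SAGA and CHAT use in different isoforms, was at 111, 93.3 and 81.4 CPM in FL and 87.2, 84.01, 61.9 and 80.5 CPM in FLWF24 and overlapped (-0.13, 95% interval -0.57 to 0.31). Sgf29, which binds methylated histone H3, was low and scattered at 21.7, 10.7 and 1.93 CPM in FL and 3.17, 11.9, 3.82 and 14.7 CPM in FLWF24, so that its interval ran from -1.93 to 1.87. Cdc7, the kinase that Chiffon-A activates, was at 39.6, 40.9 and 25.2 CPM in FL and 19.9, 29.5, 34.02 and 39.7 CPM in FLWF24, and the groups overlapped (0.10, 95% interval -0.95 to 1.15).

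**Figure D2:**
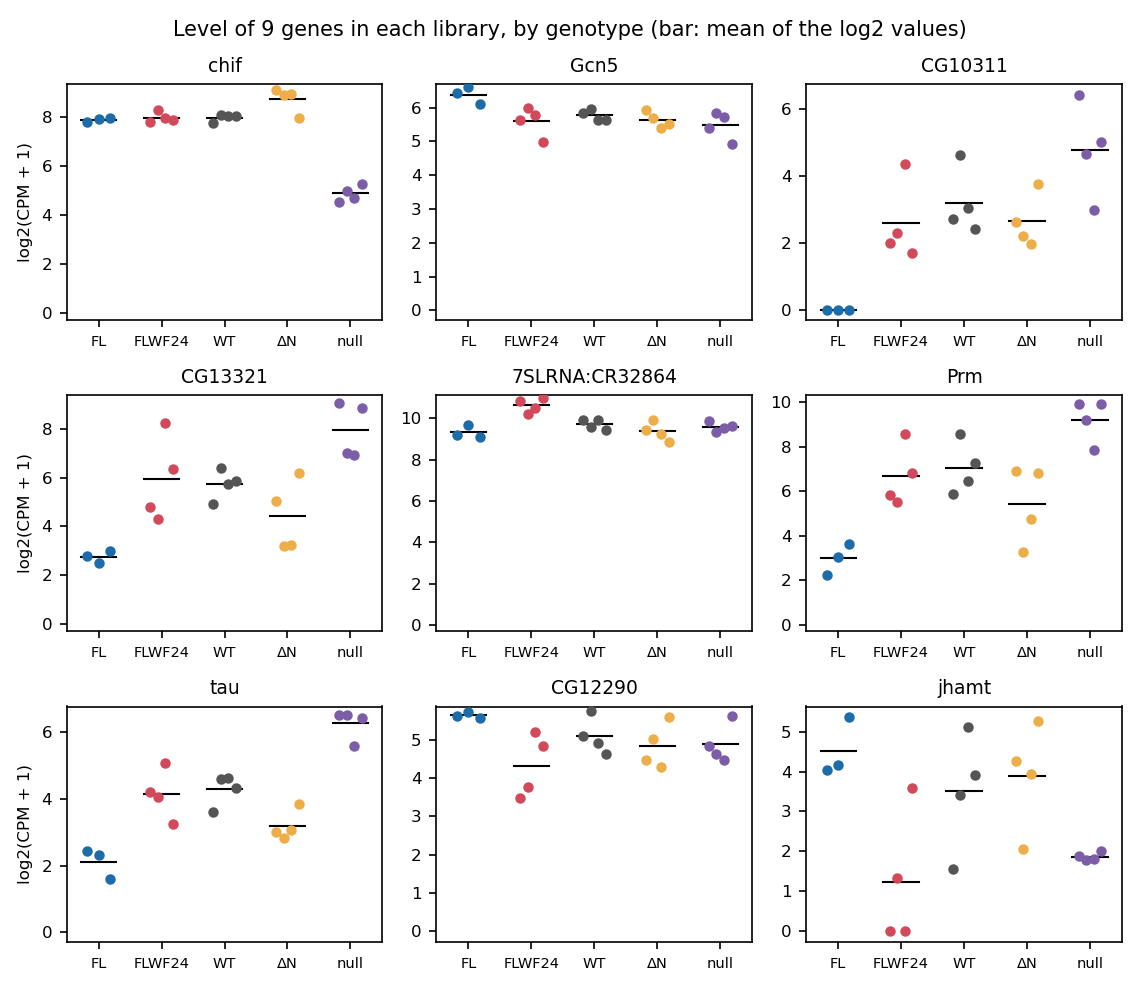
Levels of 9 genes as log2(CPM + 1) in every library (points) by genotype, with bars at the mean of the log2 values. chif overlaps between FL and FLWF24, CG10311 is at 0 in the 3 FL libraries, and the other 7 genes do not overlap between FL and FLWF24.

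Genes that act with DDK in replication did not pass the test. Of 22 tested genes for DDK and origin firing none was called, and none had an unadjusted p under 0.05, against 3.72% higher and 2.68% lower over all genes. Neither DESeq2 nor the fit of the 7 libraries called any. Their median difference was 0.11 log2 units, beside 0.01 for all tested genes, and its sign was not stable, since it was -0.17 in the fit of the 7 libraries, -0.12 without FL replicate 4 and 0.35 without FLWF24 replicate 1. Origin licensing factors were split in sign. Cdc6, which loads the MCM helicase, was at 71.5, 65.97 and 50.7 CPM in FL and 44.3, 45.1, 41.7 and 45.7 CPM in FLWF24, lower without overlap but with an unadjusted p of 0.241, and it was the only 1 of the 22 whose groups did not overlap. Orc6, a subunit of the origin recognition complex, was at 11.99, 11.8 and 3.87 CPM in FL and 18.7, 14.1, 21.5 and 9.81 CPM in FLWF24, which overlapped. The helicase subunits Mcm5 and Mcm2 had differences of -0.49 and 0.31, and both overlapped between the groups.

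Processes downstream of DDK had no member past that p either. None of 27 genes of the replication fork and S phase had an unadjusted p under 0.05 (median -0.02, range -0.81 to 1.13), nor did any of 30 mitotic genes (median 0.06) or of 25 genes for DNA damage and apoptosis (median -0.05). The interval lay within 1 log2 unit of 0 for 9 of the 22 and 14 of the 27. It did so for 15 of the 30 and 9 of the 25. For the others a difference of more than 1 log2 unit was not excluded. Mitotic genes summed to 4779, 4556 and 2221 CPM in FL and 2897, 3702, 3293 and 2896 in FLWF24, where FL replicate 4 was below all FLWF24 libraries and FL replicates 2 and 3 above them. The same held for acetyltransferase genes. Of 21 other subunits of SAGA, ADA and ATAC, and of 8 other histone acetyltransferases, none reached an unadjusted p of 0.05 (medians 0.03 and -0.06).

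**Figure D3:**
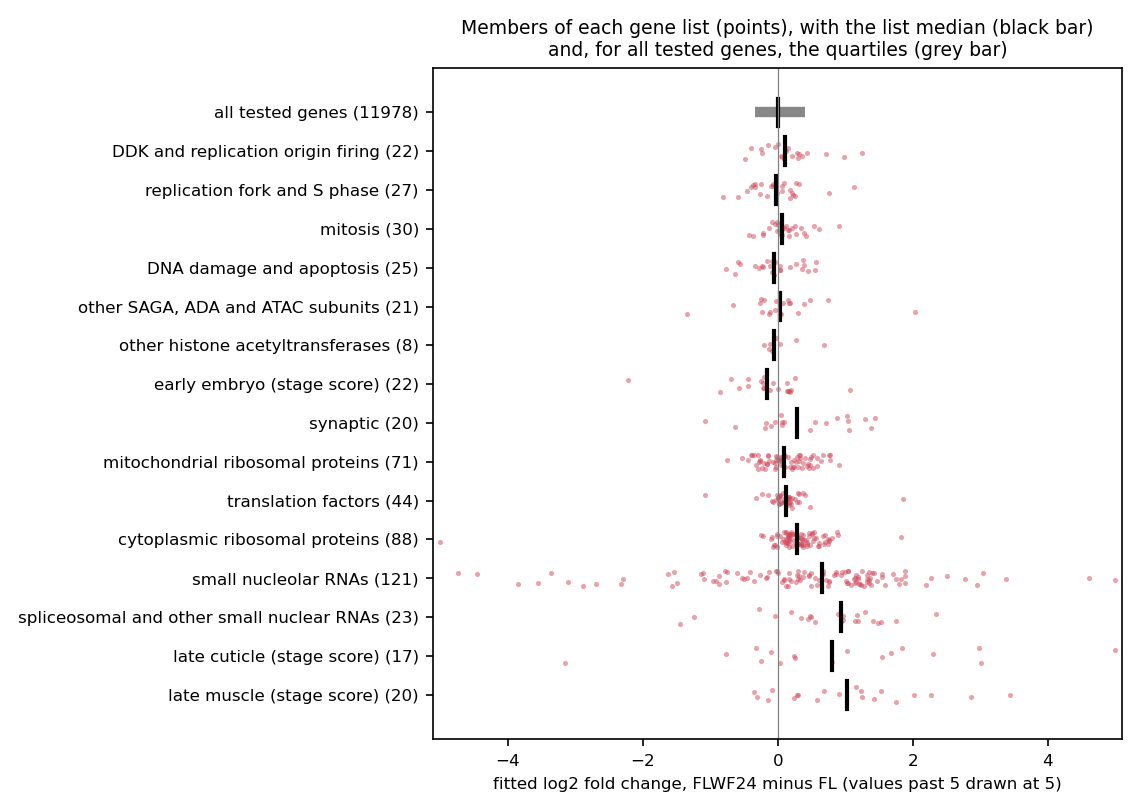
Fitted log2 fold changes of FLWF24 against FL for the tested members of 15 gene lists (points, number tested in brackets), with list medians as black bars and the quartiles of all 11978 tested genes as a grey bar. Lists for replication, mitosis and acetyltransferases have medians of -0.06 to 0.11, and those for small nucleolar RNAs, small nuclear RNAs, late cuticle and late muscle have medians of 0.66, 0.94, 0.80 and 1.03.

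Ribosomal protein transcripts, which encode the protein part of the cytoplasmic ribosome, were mostly higher in FLWF24. By edgeR no member was called, DESeq2 called 4 higher, with RpL36, RpS19a and RpS30 among them, and the fit of the 7 libraries called RpL36 and RpL36A. Of 88 tested, 77 had a positive difference (87.5%, beside 50.7% of all tested genes), 24 were higher and 1 was lower at an unadjusted p under 0.05, and 43 were higher in all 4 FLWF24 libraries than in all 3 FL libraries with none lower. Over all tested genes 3.72% were higher and 2.68% lower at that p, and 4.71% and 3.32% without overlap. Their median difference was 0.28 log2 units. Together they summed to 138550, 144380 and 106830 CPM in FL and 156190, 159050, 157810 and 155280 CPM in FLWF24. The FLWF24 libraries, replicates 3 and 4 included, lay close together above all FL libraries, and also above the WT range of 101740 to 143380 CPM, while null libraries reached 163290 CPM.

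RpL36 of the large subunit was at 1446, 1637 and 1229 CPM in FL and 2583, 2433, 2262 and 2461 CPM in FLWF24 (log2 fold change 0.89, SE 0.248, unadjusted p 0.00162, adjusted p 0.497). RpS19a of the small subunit was at 2949, 2482 and 1910.4 CPM in FL and 4932, 3805, 4513 and 3790.4 CPM in FLWF24 (0.80, adjusted p 0.497). For both, the lowest FLWF24 library was above the highest FL library and above the highest WT library. RpS30 and RpL36A differed by 0.74 and 0.76 and did not overlap either. The 1 member lower at an unadjusted p under 0.05 was RpL22-like, a testis-enriched paralog of RpL22, at 1.603, 3.11 and 6.03 CPM in FL and 0, 0, 1.62 and 0 CPM in FLWF24, which overlapped. Leaving out FL replicate 4, the lowest of the group, brought the number higher at that p from 24 to 11 and the median to 0.18, and leaving out FLWF24 replicates 3 and 4 together brought them to 18 and 0.28.

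Related gene groups had smaller medians. Mitochondrial ribosomal proteins had a median of 0.10 over 71 tested genes, with none at an unadjusted p under 0.05. Translation factors had a median of 0.12 over 44, with 1 at that p, eIF3g1, a subunit of the initiation factor that recruits the small subunit, at 219, 247 and 184 CPM in FL and 301, 292, 295 and 249 CPM in FLWF24. Subunits of oxidative phosphorylation had a median of 0.08 over 78. At that p 6 were higher and 1 lower, against 3.72% and 2.68% of all tested genes. ATPsynO of the ATP synthase was at 58.6, 85.98 and 61.7 CPM in FL and 116, 95.8, 199 and 118 CPM in FLWF24 and ND-B16.6 of complex I at 76.1, 89.4 and 79.7 CPM in FL and 167, 118, 119 and 110.2 CPM in FLWF24, and neither gene overlapped between the groups.

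Among small stable RNAs edgeR called no gene, while DESeq2 called both copies of the 7SL RNA and snRNA:U11, and the fit of the 7 libraries called 7SLRNA:CR32864, snoRNA:U3:54Aa, snoRNA:U3:54Ab and snoRNA:Psi28S-291. The rRNA genes, which were left out before scaling, took 1.003, 1.19 and 0.7298% of gene counts in FL and 1.96, 1.48, 3.58 and 1.65% in FLWF24, so every FLWF24 library lay above every FL library in this share too, and its part in the values of small RNAs was not tested. The 7SL RNA is the scaffold of the signal recognition particle, which brings ribosomes that make secreted proteins to the endoplasmic reticulum. Its copy 7SLRNA:CR32864 was at 593, 812 and 540.2 CPM in FL and 1865, 1176, 1467 and 2049 CPM in FLWF24 (log2 fold change 1.36, SE 0.255, unadjusted p 2.06e-05, adjusted p 0.0616), with no overlap. In WT it was at 700.4 to 980.4 CPM, below every FLWF24 library. The copy 7SLRNA:CR42652 gave 735, 995 and 523 CPM in FL and 2398, 1382, 2078 and 2379 CPM in FLWF24. The copies are nearly alike in sequence, so the split of reads between them is uncertain, and their sum was 1328, 1807 and 1064 CPM in FL and 4264, 2558, 3546 and 4428 CPM in FLWF24.

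Small nucleolar RNAs, which guide the modification and cleavage of ribosomal RNA, had a median of 0.66 log2 units over 121 tested of 257, of which 85 had a positive difference. There were 12 higher and 0 lower at an unadjusted p under 0.05, and 28 higher and 2 lower without overlap, against the same shares over all tested genes (3.72% and 2.68% at that p, 4.71% and 3.32% without overlap). They summed to 885, 1111 and 996 CPM in FL and 1951, 1504, 2658 and 2422 CPM in FLWF24, so that the groups were apart, with replicates 3 and 4 the highest. Without those 2 libraries the median was 0.38 and 4 were higher at that p. Psi28S-291, a guide for pseudouridine in the 28S rRNA, was at 189.6, 234 and 219 CPM in FL and 478, 326, 704 and 537 CPM in FLWF24 (1.15, adjusted p 0.653). The U3 copies snoRNA:U3:54Aa and snoRNA:U3:54Ab, which act in the first cleavages of the rRNA precursor, had differences of 1.32 and 1.16 and are also near-identical. Uhg2, a transcript whose introns hold small nucleolar RNAs, was at 4.49, 4.14 and 2.46 CPM in FL and 42, 11.5, 27.4 and 37.2 CPM in FLWF24 (2.99, adjusted p 0.497) and was called by DESeq2 and in the fit of the 7 libraries, while the median of the 6 such host transcripts tested was 0.24.

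Small nuclear RNAs, those of the spliceosome and others, had a median of 0.94 over 23 tested of 31. At an unadjusted p under 0.05, 4 were higher and 0 lower, against 3.72% and 2.68% of all tested genes. Without overlap, 10 were higher and 0 lower, against 4.71% and 3.32%. snRNA:U11, which recognizes the 5′ splice site of minor introns, was at 20.3, 15.99 and 21.3 CPM in FL and 70.4, 38.3, 57.9 and 46.8 CPM in FLWF24 (log2 fold change 1.76, SE 0.468, unadjusted p 0.00106, adjusted p 0.497). snRNA:U1:95Cb, which does so for major introns, was at 15.7, 14.7 and 11.7 CPM in FL and 45.03, 34.2, 31.7 and 58.3 CPM in FLWF24. snRNA:U2:14B and snRNA:U2:34ABb, copies of the branch point RNA, differed by 1.41 and 0.97, with reads that cannot be split with certainty between near-identical copies. The sum over the list was 2339.8, 2429 and 1938 CPM in FL and 2744, 2537, 3052 and 2995 in FLWF24, inside or below the WT range of 2838 to 5455 CPM. The lists of small nuclear RNAs, 7SL copies and host transcripts were drawn up after these values had been seen.

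**Figure D4:**
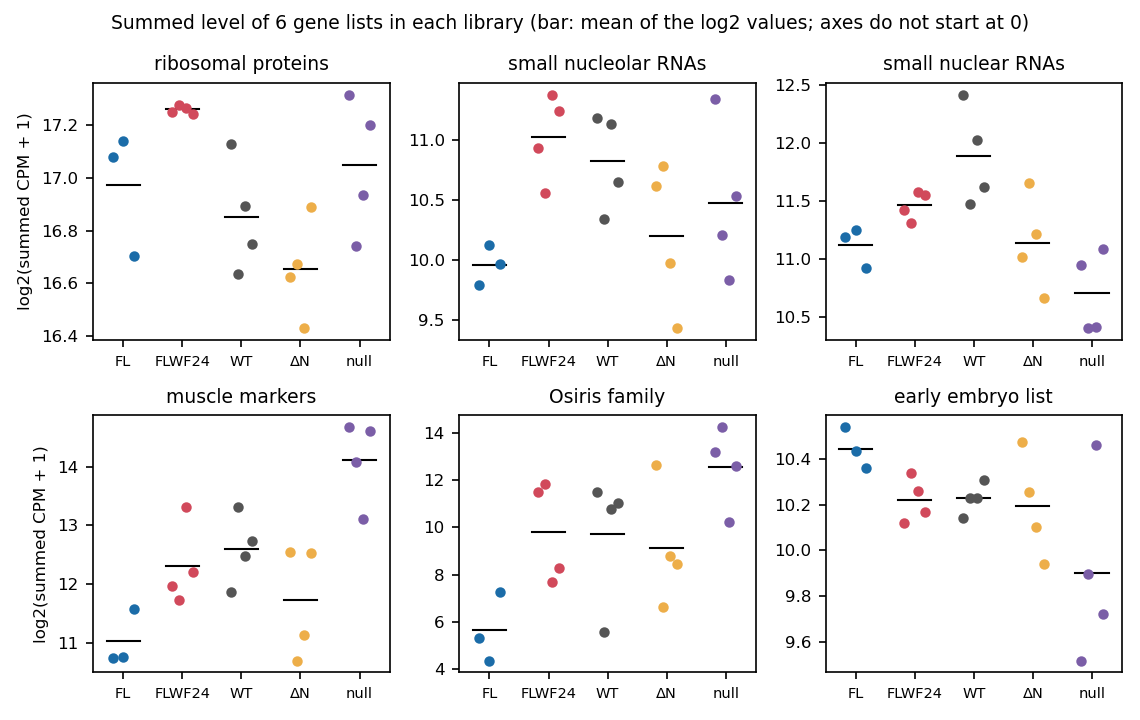
Summed level of 6 gene lists as log2(summed CPM + 1) in each library (points) by genotype, with bars at the mean of the log2 values and axes that do not start at 0. The 4 FLWF24 libraries lie above the 3 FL libraries for 5 of the 6 lists and below them for the early embryo list, and the Osiris family is high in FLWF24 replicates 1 and 2.

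Late muscle genes, 1 of the lists in the stage score, included several that were higher in every FLWF24 library. Of 20 none was called by edgeR, and Prm alone by DESeq2 and in the fit of the 7 libraries. At an unadjusted p under 0.05, 7 were higher and 0 lower, against 3.72% and 2.68% of all tested genes. Without overlap 10 were higher, against 4.71%, and the median was 1.03. Prm (paramyosin, of the thick filament) was at 3.78, 7.38 and 11.4 CPM in FL and 55.96, 45.4, 378 and 112 CPM in FLWF24 (log2 fold change 2.87, SE 0.567, unadjusted p 0.000157, adjusted p 0.192). Mhc, the muscle myosin heavy chain, was at 46.6, 43.2 and 179.7 CPM in FL and 529, 286, 2311 and 737 CPM in FLWF24, and Mf (myofilin), also of the thick filament, at 0.0641, 0 and 2.93 CPM in FL and 5.85, 8.18, 384 and 104 CPM in FLWF24. For all 3 the groups were apart and FLWF24 replicate 3 was the highest by far. The thin filament genes up (troponin T), wupA (troponin I) and Tm2 (tropomyosin) differed by 2.02, 1.75 and 1.52, each without overlap. The 8 muscle marker genes summed to 1730.1, 1732 and 3053 CPM in FL, 4024, 3409.8, 10134 and 4714 in FLWF24 and 3756 to 10163 in WT, so that the 3 FL libraries and FLWF24 replicate 2 lay below the WT range.

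The stage score is built from these muscle genes and others. With the score in place of the factor of unwanted variation, Prm and Mhc differed by 2.29 and 1.58, beside 2.87 and 2.27. With the stage score in the model in place of the factor of unwanted variation the muscle median was 0.29, with 3 genes higher at an unadjusted p under 0.05, and with neither it was 2.02. It did not rest on replicate 3 alone (median 1.01 without it, 1.02 without replicates 3 and 4), but it was 0.53 without FLWF24 replicate 1, and 2 genes were left at that p without FL replicate 2 or without FL replicate 3. For the ribosomal proteins and small nucleolar RNAs, the medians with the stage score in place of the factor were 0.30 and 0.79. Of 22 early embryo genes, 9 had a positive difference. At an unadjusted p under 0.05, 2 of them were lower and 0 higher, against 2.68% and 3.72% of all tested genes. Their median was -0.16, and it was 0.05 with the replicate number as a block. Kr (Krüppel, a gap gene transcription factor) was at 153, 115 and 77.8 CPM in FL and 47.7, 84.6, 53.5 and 42.4 CPM in FLWF24.

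Some cuticle genes and families had unlike levels in the FLWF24 replicates. Of 17 late cuticle genes tested, 2 were higher and 0 lower at an unadjusted p under 0.05, with a median of 0.80. Of all tested genes 3.72% were higher and 2.68% lower. That median moved with many settings, to -0.05 without FLWF24 replicates 3 and 4, 0.28 without FLWF24 replicate 3, 0.01, 0.09 and 0.24 without null replicates 3, 1 and 4, which are outside the contrast, and 2.96 without the factor of unwanted variation. None was called by edgeR, DESeq2 called 2 and the fit of the 7 libraries called ple. The late cuticle list summed to 515, 505 and 1064 CPM in FL and 811, 682, 953 and 925 CPM in FLWF24, which overlapped. The 2 genes at an unadjusted p under 0.05 in edgeR were Cpr47Ef and Cpr76Bc, with differences of 2.985 and 6.145. ple (tyrosine hydroxylase) and Ddc (dopa decarboxylase), the enzymes that make dopamine for tanning, were at 1.35, 1.94 and 1.87 CPM in FL and 5.78, 4.09, 153 and 50.1 CPM in FLWF24, and at 0.385, 0.583 and 0 CPM in FL and 2.61, 2.18, 88.9 and 13.4 CPM in FLWF24, respectively. Both were without overlap and highest in replicates 3 and 4, but neither was at that p in edgeR. The Osiris family, genes for membrane proteins of cuticle-forming cells that lie mostly in a cluster on arm 3R, showed the opposite order. Its 23 members summed to 39.2, 19.6 and 152 CPM in FL and 2848, 3616, 207 and 309 CPM in FLWF24, thus highest in replicates 1 and 2, and WT libraries spanned 47.4 to 2898.

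Of 16 Osiris genes tested, 10 were higher and 1 was lower at an unadjusted p under 0.05, against 3.72% and 2.68% of all tested genes. Without overlap 8 were higher, against 4.71% of all tested genes, and edgeR called none. DESeq2 called 9 higher and 1 lower, and the fit of the 7 libraries called Osi9, Osi14, Osi15, Osi19 and Osi20. Osi6 was at 3.46, 2.27 and 30.4 CPM in FL and 1396, 1390.1, 91.5 and 105 CPM in FLWF24 (5.93, adjusted p 0.696). Osi14 was at 0, 0.324 and 0 CPM in FL and 95.6, 180.1, 3.24 and 10.2 CPM in FLWF24 and Osi15 at 0.834, 0 and 0 CPM in FL and 144, 150.2, 3.36 and 14.3 CPM in FLWF24. Osi20 had no counts in FL and was at 23.05, 57.4, 0.231 and 7.36 CPM in FLWF24, at least 117-fold higher against the floor of 3 counts per FL library, or 54.5-fold without FLWF24 replicate 2. Replicate 3 held 2 counts of it. With the stage score beside the factor of unwanted variation, Osi14, Osi15 and Osi20 differed by 7.53, 5.70 and 9.165, against 9.39, 8.17 and 11.17 in the main fit. The family's median was 5.51 as fitted and 4.19 with members at the floor put at their bound, and 3.58 without FLWF24 replicate 2. The family was singled out after its values had been seen.

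Markers of other tissues were not called by any of the 3 fits. None of the 8 neuron, 8 glia, 5 fat body, 7 trachea, 7 salivary gland and 8 germ cell genes tested had an unadjusted p under 0.05, with medians of 0.39, -0.08, -0.05, -0.01, 0.20 and 0.17. Of 8 hemocyte genes 5 had a positive difference, with a range of -1.69 to 1.51, and 1 was higher at that p. They summed to 1104, 1034 and 1220.4 CPM in FL and 1496, 1365, 2106 and 1569 CPM in FLWF24, so that every FLWF24 library lay above every FL library. The gene at that p was vkg, a type IV collagen chain made by hemocytes, at 85.8, 75.6 and 199 CPM in FL and 265, 236, 494 and 258 CPM in FLWF24 without overlap. Of 6 midgut genes 1 was lower at that p, and GATAe, a midgut transcription factor, was at 68.6, 64.4 and 70.4 CPM in FL and 33.1, 48.6, 60.1 and 65.9 CPM in FLWF24, which overlapped. Synaptic genes had a median of 0.29 over 20, with 1 at an unadjusted p under 0.05 and 4 higher without overlap. Of all tested genes 3.72% were higher and 2.68% lower at that p, and 4.71% were higher without overlap. With the stage score in place of the factor of unwanted variation, the synaptic median was 0.085, and vkg differed by 0.38, beside 0.82 in the main fit. With the score beside the factor, the neuron median was 0.13. cac, the calcium channel of presynaptic sites, was at 9.17, 5.697 and 6.15 CPM in FL and 15.1, 16.98, 40.5 and 32.3 CPM in FLWF24 (1.30, adjusted p 0.652), and brp, a scaffold of the active zone, was at 11.9, 9.45 and 33.3 CPM in FL and 44.3, 37.98, 80.9 and 39.2 CPM in FLWF24. tau, which binds microtubules in axons, was at 4.36, 3.95 and 2.05 CPM in FL and 17.5, 15.5, 32.7 and 8.504 CPM in FLWF24 (log2 fold change 2.08, SE 0.426, unadjusted p 6.54e-05, adjusted p 0.125). It did not overlap, DESeq2 called it, and WT embryos had 11.05 to 23.6 CPM.

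In the mevalonate pathway, which makes isoprenoids, 3 of 8 tested genes were higher and 1 was lower at an unadjusted p under 0.05. Those shares were 3.72% and 2.68% over all tested genes. Hmgs, which makes HMG-CoA, was at 49.6, 47.1 and 48.7 CPM in FL and 169, 163, 55.3 and 70.5 CPM in FLWF24 (log2 fold change 1.38, SE 0.374, unadjusted p 0.00149, adjusted p 0.497), and DESeq2 and the fit of the 7 libraries called it. Pmvk and Mvd, which act later in the pathway, were at 21.3, 20.98 and 17.1 CPM in FL and 46.6, 38.7, 22.2 and 20.2 CPM in FLWF24, and at 17.1, 11.9 and 13.1 CPM in FL and 38.2, 32.2, 15.04 and 11.8 CPM in FLWF24. All 3 were highest in FLWF24 replicates 1 and 2. The lower gene was jhamt, which methylates juvenile hormone acid downstream of that pathway. It was at 15.4, 17.1 and 40.5 CPM in FL and 0, 1.5, 0 and 11.1 CPM in FLWF24 (log2 fold change -3.86, SE 1.39, unadjusted p 0.0124, adjusted p 0.673), without overlap, and at 1.95 to 33.9 CPM in WT and 2.43 to 2.999 in null. jhamt (chromosome arm 2L, 16365903 to 16367039, plus strand) lies near *chiffon*. Of the 11 neighbours that *chiffon* has within 20000 bp, 10 were tested, and jhamt was the only 1 with an unadjusted p under 0.05.

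Heat shock and stress genes were mixed, with 2 of 16 higher and 1 lower at that p, where 3.72% of all tested genes were higher and 2.68% lower. Hsp26, a small chaperone, was at 5.39, 2.78 and 8.14 CPM in FL and 21, 4.84, 46.4 and 19.3 CPM in FLWF24, which overlapped. stv (starvin), a co-chaperone in muscle, was at 8.91, 9.84 and 12.7 CPM in FL and 30.2, 14.1, 77.2 and 51.02 CPM in FLWF24, which did not. Hsp67Bc, another small chaperone, was at 36.6, 47.3 and 133 CPM in FL and 39.6, 46.6, 32.5 and 42.6 CPM in FLWF24, where FL replicate 4 was high. None of 17 genes for ecdysone synthesis and response had an unadjusted p under 0.05 in edgeR (median -0.02), although DESeq2 called 1, and none of 10 for sex and dosage compensation did (median -0.01).

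Most of the 12 genes with the smallest unadjusted p among those higher without overlap have no name beyond their number. After CG10311, the smallest were those of CG13321 and CG4301, with an adjusted p of 0.0520 each. CG13321 was at 5.9, 4.597 and 7.03 CPM in FL and 26.9, 18.96, 301 and 81.7 CPM in FLWF24 (2.39 log2 units), and CG4301 at 1.15, 1.81 and 1.64 CPM in FL and 12.8, 6.61, 24.5 and 12.5 CPM in FLWF24 (2.47). WT embryos had 28.9 to 83.2 CPM of CG13321 and 8.17 to 30.03 CPM of CG4301, so that every FL library lay below the WT range, as did FLWF24 replicates 1 and 2 for CG13321 and replicate 2 for CG4301. CG15097 was at 0, 0.712 and 0.0586 CPM in FL and 34.5, 7.36, 8.56 and 7.77 CPM in FLWF24 and CG15093 at 0, 0.259 and 1.35 CPM in FL and 6.48, 3.41, 163 and 43.1 CPM in FLWF24. CG8560 and CG45078 had no counts in FL and were at 2.75, 4.501, 25.2 and 5.07 and at 1.48, 1.98, 51.7 and 21.01 CPM in FLWF24, at least 50.1-fold and 102-fold higher against the floor, or 21.9-fold and 43.5-fold without replicate 3. CG18259 went beyond WT, at 85.9, 73.9 and 38.1 CPM in FL and 209, 129, 164 and 122 CPM in FLWF24 and 23.9 to 78.98 CPM in WT.

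The 12 genes with the smallest unadjusted p among those lower without overlap were not called by edgeR. DESeq2 called CG12290, CG45105 and CG14275, and the fit of the 7 libraries called CG12290. CG12290 led at 47.97, 52.2 and 46.8 CPM in FL and 10.2, 12.5, 36.2 and 27.5 CPM in FLWF24 (log2 fold change -1.74, SE 0.372, unadjusted p 0.000109, adjusted p 0.163), with FL levels close together. nxf2, a nuclear export factor paralog that acts in piRNA-guided silencing, was at 50.9, 47.7 and 27.01 CPM in FL and 10.5, 18.9, 19.6 and 23.7 CPM in FLWF24 (-1.29), and WT embryos had 10.9 to 23.2 CPM. modSP, a serine protease upstream of Toll in immunity, was at 19.4, 22.7 and 28.1 CPM in FL and 7.82, 12.8, 8.1 and 14.9 CPM in FLWF24 (-1.39). Lerp, a receptor that sorts lysosomal enzymes, differed by -1.19, Best2, a bestrophin chloride channel, by -1.22, and Cyp309a1, a cytochrome P450, by -2.09.

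rho (rhomboid), the protease that releases EGF receptor ligands, was at 88.8, 85.7 and 82.1 CPM in FL and 70.2, 46.6, 51.03 and 56.99 CPM in FLWF24 (-0.69, adjusted p 0.673). cbt (cabut), a zinc finger transcription factor, was at 224, 199 and 257 CPM in FL and 180.2, 89.7, 168 and 169 CPM in FLWF24 (-0.75). Neither gene overlapped between the groups. Rdh1, a retinol dehydrogenase, was at 30.7, 33.6 and 134 CPM in FL and 28.9, 24.5, 22.1 and 21.1 CPM in FLWF24 (-1.46). FL replicate 4 alone was high, and without it the difference was -0.40. CG45105 and CG14275 had differences of -1.41 and -4.42. CG14275 was also highest in FL replicate 4, at 49.6 CPM against 5.13 and 6.34 in the other FL libraries. Leaving that library out brought its difference to -2.71.

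Some genes were at the floor of 3 counts in 1 rescue and above it in the other. At most 3 counts in each FL library, with more than 3 in each FLWF24 library, were found for 30 of 11978 genes, and the reverse for 27. The FL libraries were fewer and deeper, so the rule was not equally strict in each direction. By chromosome arm, the share of genes higher in FLWF24 at an unadjusted p under 0.05 was 3.52% on 2L, 4.08% on 2R, 3.11% on 3L, 3.69% on 3R and 4.46% on X, and the share lower was 3.66%, 2.14%, 3.11%, 2.57% and 1.97%.

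ΔN against WT also differs in whether Chiffon-A can be made. It shares no library with FLWF24 against FL, although WT carries intact *chiffon* in place of a transgene. The pair differs in the level of *chiffon* too, at 250.4 to 549 CPM in ΔN and 213 to 270 CPM in WT. The study also found it higher in ΔN, and proposes that CHAT may gain some function there. The mean stage score was 0.57 in ΔN (-1.04 to 2.59) and 1.52 in WT (0.27 to 2.22). It was thus lower in ΔN than in WT, but higher in FLWF24 (0.97) than in FL (-0.51). The part of stage in the signs given below was not tested. For the 445 genes higher in FLWF24 at an unadjusted p under 0.05, 27.0% were also higher in ΔN than in WT, beside 38.0% of all genes with a positive difference in FLWF24. With an unadjusted p under 0.05 there too, 1.80% had the same and 24.0% the opposite sign, beside 2.54% and 8.70% of all such genes, and over all tested genes 1251 had such a p in ΔN against WT (10.4%). For the 321 lower genes, 48.9% were also lower in ΔN, beside 54.6% of all genes with a negative difference. At that p 7.17% had the same and 12.1% the opposite sign, beside 6.10% and 3.54%.

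The gene lists, too, had other signs in ΔN against WT. The median difference was -0.24 for ribosomal proteins, -0.56 for small nucleolar RNAs, -0.28 for small nuclear RNAs and -0.43 for late muscle genes. It was -0.11 for all tested genes. FLWF24 against FL had 0.28, 0.66, 0.94 and 1.03 for these lists. ΔN against FL, which shares the FL libraries, had -0.28, 0.07, 0.54 and 0.62, beside -0.06 for all tested genes. FL against WT had 0.10, -0.46, -0.76 and -1.24, beside -0.04. CG10311 had a difference of 0.04 in ΔN against WT (unadjusted p 0.951), Gcn5 of -0.20 (unadjusted p 0.449) and jhamt of 0.91 (unadjusted p 0.456).

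Set against FLWF24 itself, ΔN had 41 called genes (0.342%), and 5 of the genes described above were among them, all lower in ΔN. 7SLRNA:CR32864 was at 467 to 971 CPM in ΔN and RpL36 at 459.6 to 1133, each below every FLWF24 library (edgeR, adjusted p 0.00999 and 0.000837). RpS19a, RpL36A and RpS30 were at 1565 to 2599, 267 to 539.8 and 615 to 869 CPM in ΔN and did not overlap with FLWF24 either. This contrast shares the FLWF24 libraries with FLWF24 against FL, so the values are given side by side only.

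**Figure D5:**
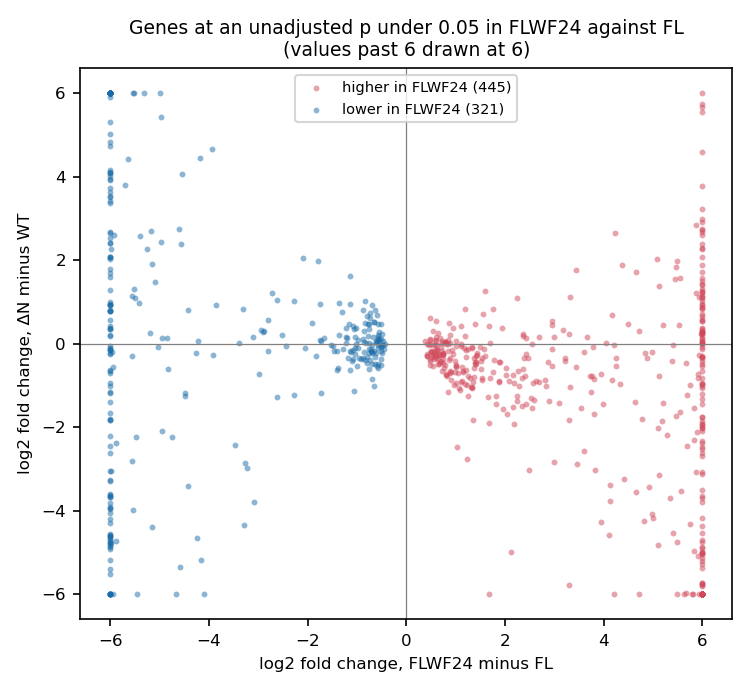
Log2 fold changes in FLWF24 against FL (x axis) and in ΔN against WT (y axis) for the genes with an unadjusted p under 0.05 in the first, which were chosen on the x axis values, 445 higher and 321 lower, with values past 6 drawn at 6. The comparisons share no library. Of the higher genes 27.0% lie above 0 on the y axis, and of the lower genes 48.9% lie below 0.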

How the data were processed

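Members, gene lists and tests were chosen with earlier results of these data known. The deposited table holds read counts, unscaled, made by the authors with Trimmomatic, HISAT2 and HTSeq 0.11.1 on dm6 (BDGP6). The header was 1 cell short of the values, so its names were read in their order. All 19 columns were matched to labels. The table numbers the FL columns 2 to 4 where the labels have 1 to 3, so these were matched as a group. HTSeq's default counts by strand, which the kit is not known to keep, so overlapping and antisense genes are uncertain. Gene names and positions are those of a newer annotation of this assembly, with 17710 of 17807 genes. No sequence is shown, since none was used here.

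After removal of 138 rRNA genes, spike-ins, reporters and summary lines, 11978 genes passed filterByExpr. The lines that name no gene held 63.6% to 96.0% of counted reads. Scaling was by TMM. A quasi-likelihood fit in edgeR 4.0.16 (R 4.3.3) of all 19 libraries by genotype held 1 RUVs factor, written out in R and taken from differences between replicates on upper-quartile-scaled counts. RUV follows the study, which does not state the number of factors. Tests are two-sided, with Benjamini-Hochberg adjustment over all tested genes. Replicates are biological replicates by the study's methods, each a pool of embryos. Reads carry no molecular identifiers, and floors of 3 counts per library cover counting error only. The fit was tested on simulated data. DESeq2 1.42.0 and other filters, scalings, covariates and subsets of libraries were alternatives.

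Named genes were the called gene, the 12 smallest unadjusted p in each direction with a mean of at least 5 CPM in a group and no overlap, *chiffon* and its partners, and up to 4 genes with the smallest p of each list. Other named list members (wupA, RpL22-like, the U3 copies, Osi6, Osi9, Osi19, and Nlg4, Mdr65 and Dh44-R2 in the closing section) were chosen after their values were seen.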

Additional observations from a re-analysis of the deposited data

Results flagged for a closer look

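Of 114 values in the 4 FLWF24 libraries, which are levels of single genes, list sums and library measures, 15 had 1 library apart from the other 3, its gap to them past Dixon's 95% critical share of the range. The chance rate of 1 in 20 holds for normal values that were not selected. Most values here are untransformed CPM of genes picked by their p, so 15 of 114 cannot be read against that rate. A gene with 0 CPM in the other 3 libraries is apart at any level, as Cpr62Bc was. Replicate 3 was the library apart for CG10311 (19.4 CPM), CG8560 (25.2), Tm2 (320.5), Act57B (2496), vkg (493.7) and Cpr62Bc (0.926), each time as the highest. Replicate 4 was the library apart as the highest for jhamt (11.1 CPM) and ATPsynbetaL (0.164) and as the lowest for Best2 (6.95), eIF3g1 (248.9) and COX7CL (0 CPM). Replicate 1 was apart as the highest for CG15097 (34.5) and ND-B16.6 (167.2). Replicate 2 was apart for cbt, as the lowest (89.7), and for the summed level of Chiffon, Gcn5, Ada2b, Ada3 and Sgf29, as the highest (514.7 CPM).

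FLWF24 and ΔN were each set against FL, and the difference between them was tested in the same edgeR fit, in which 41 genes were called (0.342%). Among the 73 genes compared here, 5 were lower in ΔN. Most of the 73 were picked by their p or lack of overlap in FLWF24 against FL, which uses the same FLWF24 libraries. The p-values against ΔN are thus not independent of that choice. The log2 difference of ΔN from FLWF24 was -1.29 (adjusted p 0.00999) for 7SLRNA:CR32864, -1.64 (adjusted p 0.000837) for RpL36, -1.06 (adjusted p 0.0155) for RpS19a, -0.99 (adjusted p 0.0258) for RpL36A and -0.93 (adjusted p 0.0199) for RpS30.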

How the results depend on the processing

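The number of genes called in FLWF24 against FL was 1, and other settings gave 0 to 206. It stayed at 1 with RLE scaling and with at least 10 counts on average. With edgeR it was 0 without a RUV factor, in the fit of the 7 libraries without a factor, and with counts thinned to the smallest library (958, 773 and 628 genes at an unadjusted p under 0.05). It was 7 with 2 RUV factors, 2 with the stage score in place of the factor or beside it, 3 with upper-quartile scaling, 3 without a filter on low counts, 206 with DESeq2 and 33 in the fit of the 7 libraries. Leaving out 1 library at a time gave 1 to 6, and CG10311 was among them each time. Of 2 settings chosen after the data were seen, a RUV factor from TMM-scaled counts called 3 and leaving out FLWF24 replicates 3 and 4 called 1. Replicate numbers did not pair the FLWF24 and FL libraries (correlations of deviations 0.054, -0.033 and 0.049), and with the replicate number as a block 3 genes were called. CG10311 missed the threshold in 4 of 34 settings, with an adjusted p of 0.067 without a factor, 0.102 and 0.194 in the fits of the 7 libraries, and 0.137 with thinned counts. CG13321 was called in 19 settings and CG4301 in 11.

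The *chiffon* difference ran from -0.019 to 0.21 when 1 library was left out, and no setting called it. Small differences in the partners changed sign. Cdc7 was at -0.20 without a factor, -0.034 with 2 factors, -0.32 and -0.20 in the fits of the 7 libraries, and -0.40 without FLWF24 replicates 3 and 4, and ran from -0.10 to 0.47 with 1 library left out. Sgf29 was at 0.025 with 2 factors, 0.22 and 0.23 with the stage score in place of or beside the factor, 0.029 with upper-quartile scaling and 0.27 with the replicate block, and ran from -0.56 to 0.80 with 1 library left out. Ada2b was at 0.012 and 0.0092 with the stage score in place of or beside the factor, and ran from -0.23 to -0.015 with 1 library left out. Cpr76Bb, a cuticle gene of few counts, ran from -7.88 to 0.58, and only leaving out FL replicate 4 turned its sign. Gcn5 and Ada3 were lower in FLWF24 in all 34 settings. The causes were not tested. The smallest library limits what FLWF24 can show for genes of few counts.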

Other observations

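Of 11978 tested genes, 20 had no count in any FL library and more than 3 counts in each FLWF24 library. Most of these have no name beyond their number. The reverse, with no count in any FLWF24 library and more than 3 in each FL library, held for 18. The genes described next are from the 20. None of the 3 described here was called by edgeR. Nlg4 (neuroligin 4), a cell adhesion protein of synapses, was at 4.23, 1.5, 3.93 and 1.47 CPM in FLWF24, and Mdr65, an ABC transporter of the blood-brain barrier, at 0.282, 4.77, 13.2 and 4.33. Dh44-R2, a receptor for the diuretic hormone 44, was at 2.47, 1.09, 5.67 and 0.736 CPM. These 3 were picked by eye, after their values were seen.

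Cuticle proteins of the Cpr and Twdl families, a list also drawn up after the values were seen, went both ways. Of 96 genes, 72 were tested. At an unadjusted p under 0.05, 8 were higher and 6 lower, against 3.72% and 2.68% of all tested genes. None was called by edgeR, DESeq2 called 5 higher and 2 lower, and the fit of the 7 libraries called Cpr47Eg. Their sum was 132, 177 and 102 CPM in FL and 188, 222, 1444 and 486 CPM in FLWF24, with FLWF24 replicate 3 far above the others. Cpr47Eg had no counts in FL and was at 3.101, 1.36, 94.3 and 22.2 CPM in FLWF24, while Cpr62Bc was at 1.03, 2.85 and 5.98 CPM in FL and 0, 0, 0.926 and 0 CPM in FLWF24. The list's median was 0.65 as fitted and -0.27 without FLWF24 replicates 3 and 4.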
